A study of Mus musculus with 4 samples.

Results

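The cells described here are the stem cells of the mouse pituitary, picked out by their RNA in a single-cell comparison of a high-fat diet with a control diet. A barcode was taken as a member if it held at least 4 of 9 stem cell marker genes (Sox2, Sox9, Aldh1a2, Cpxm2, Rbpms, Mia, Cyp2f2, Lcn2 and Aldh3a1) and if the hormone genes Gh, Prl and Pomc together made up less than 10% of its unique molecular identifiers (UMIs, the tags that mark single captured RNA molecules). The rule found 1765 members among 27220 kept barcodes, which is 6.48%. A kept barcode had at least 500 detected genes and at most 20% of its UMIs from mitochondrial genes, and 34737 barcodes were deposited.

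Pituitary glands came from wild-type C57BL/6J male mice fed a high-fat diet (HFD) or a control diet (CTRL) for 12 weeks, with 2 libraries for each diet, called HFD 1, HFD 2, CTRL 1 and CTRL 2. No allele or agent other than the diet is named in the labels, and both groups share strain, sex, tissue and the enzymatic digestion with collagenase and trypsin. RNA was counted from its 3′ end on a droplet platform. The labels do not say how many animals or glands went into a library, so the p-values below measure only the spread between these libraries, which may be technical.

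Sox2 is a transcription factor that marks the stem cells of the anterior and intermediate lobes, which lie around the cleft between the lobes and are scattered in small groups among the hormone cells. In the mouse these cells can give rise to every hormone lineage and also send Wnt and other signals to their neighbours. They carry Sox9 and genes of retinoic acid synthesis, and Notch, Hippo and FGF signalling are known to control whether they stay uncommitted, divide or differentiate.

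The libraries differed in depth in the members, and some of them shared barcodes. There were 597 members of 8012 kept barcodes in HFD 1, 416 of 7361 in HFD 2, 320 of 4513 in CTRL 1 and 432 of 7334 in CTRL 2. Their median UMI count was 4993 in HFD 1 and 17228.5 in HFD 2, against 19966.5 in CTRL 1 and 13193.5 in CTRL 2. HFD 1 and HFD 2 had 3116 barcodes in common, and in 3110 of these HFD 1 had fewer UMIs, at a median of 5.58% of the HFD 2 count. HFD 1 and CTRL 2 had 1423 in common, while the other pairs of libraries had 14 to 22. In HFD 1, 250 of the 597 members (41.9%) were the copy with fewer UMIs of a barcode found in another library, with a median of 1243 UMIs, and together they held 6.32% of the library's member UMIs. The corresponding numbers were 1 in HFD 2, 0 in CTRL 1 and 21 in CTRL 2. Of the 194 such HFD 1 members whose barcode was also kept in HFD 2, 193 (99.5%) were members there too. Without the lower copies 1493 members remained, and the counts of members, their shares and the test results below are given with and without them.

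**Figure D1:**
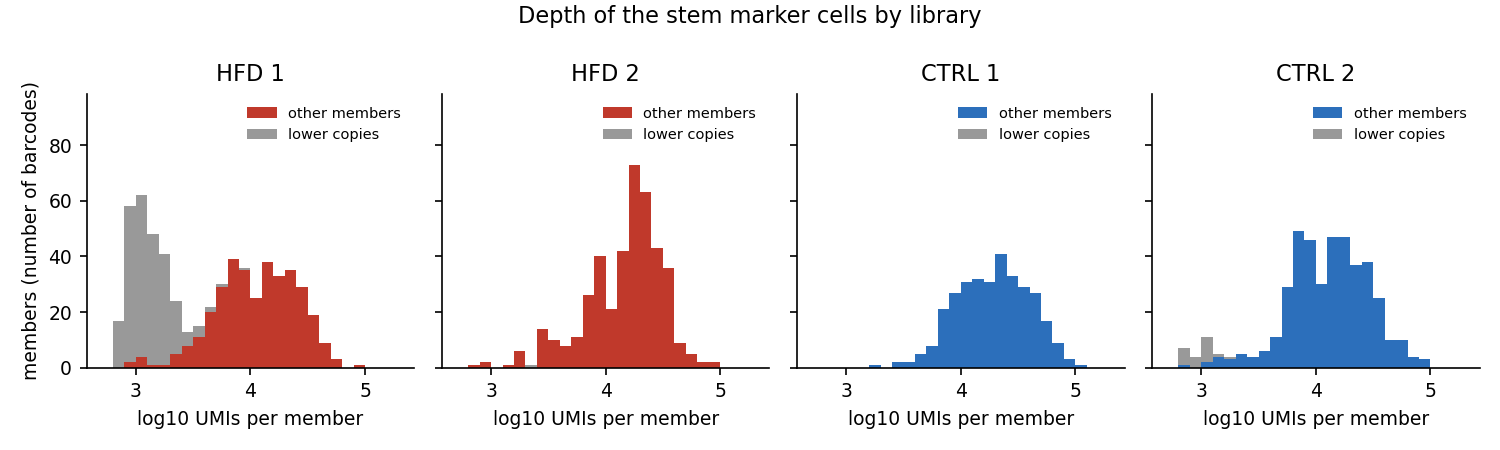
Number of members (vertical axis) by log10 UMIs per member (horizontal axis) in HFD 1, HFD 2, CTRL 1 and CTRL 2 from left to right, with the lower copies of shared barcodes stacked in grey. HFD 1 has a second group of members at low UMI counts that is made mostly of lower copies, with a median of 1243 UMIs.

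The genes of the rule were described without a test, because they chose the cells. Sox2 itself stood at 302 and 284 CPM (CPM, the gene's UMIs per 1000000 UMIs, both summed over the members of a library) in HFD 1 and HFD 2, against 259 and 273 CPM in CTRL 1 and CTRL 2. Its mean in the members was 29.9 times that in the other kept barcodes. A Sox2 UMI was found in 1451 of the 1765 members (82.2%), against 1706 of the 25455 other kept barcodes (6.70%). By library a Sox2 UMI was found in 66.7% and 91.3% of members in HFD 1 and HFD 2, against 93.8% and 86.3% in CTRL 1 and CTRL 2, and without the lower copies in 89.3% and 91.6%, against 93.8% and 88.8%. When each barcode was thinned to 2000 UMIs, the share with a Sox2 UMI was 43.7% and 37.7% of members in HFD 1 and HFD 2, against 42.0% and 44.1% in CTRL 1 and CTRL 2, and it was 1.22% to 1.99% of the other barcodes. Neither Sox2 nor its partner factor Sox9 was detected in 172 members (9.75%), of which 118 were in HFD 1 and 14 in HFD 2, against 6 in CTRL 1 and 34 in CTRL 2. Leaving out the lower copies left 59 such members (3.95%), with 18 and 13 in HFD 1 and HFD 2, against 6 and 22 in CTRL 1 and CTRL 2. All 9 markers were detected in 593 members (33.6%), and no lower copy was among them. Since these genes chose the cells, their levels give no independent check of the name. Of 22 stem cell genes that the rule did not use, 15 were higher in members than in the other barcodes in all 4 libraries and 3 were lower in all 4, which is a description of cells chosen by related genes.

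Sox2 is a single-exon gene on the plus strand of chromosome 3 (34650405 to 34652461 in GENCODE vM21, build mm10). Its RefSeq start lies upstream of that GENCODE start, so the 200 bases before the RefSeq start do not adjoin this span. The 200 bases before its RefSeq start (chr3:34649795-34649994, plus strand, GRCm38.p6) overlap no annotated exon and are shown because this is the gene on which the name of the cells rests:
Sox2: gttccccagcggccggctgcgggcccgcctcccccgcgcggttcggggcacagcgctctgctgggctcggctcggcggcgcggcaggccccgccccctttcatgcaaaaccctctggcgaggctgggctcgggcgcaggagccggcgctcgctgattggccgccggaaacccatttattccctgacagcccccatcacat
Of the 9 marker genes, 6 had a window of this kind, and none of these held the Sox core ACAAT, the AP-1 motif TGANTCA or the TATA motif TATAAA on either strand. Over all 27025 mouse promoter windows of this length, 23.3% held the Sox core, 5.55% the AP-1 motif and 10.6% the TATA motif.

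Among the other marker genes, Mia, which encodes a small secreted protein with an SH3-like fold, was the most abundant. It stood at 7763 and 7881 CPM in HFD 1 and HFD 2, against 5610.2 and 5768 CPM in CTRL 1 and CTRL 2, and both HFD libraries lay above both CTRL libraries. Rbpms, an RNA-binding protein, had 1583 and 1568 CPM in the HFD libraries, against 1337 and 1358 CPM in the CTRL libraries. Aldh1a2, which makes retinoic acid from retinaldehyde, had 901 and 845 CPM in the HFD libraries, against 719 and 653 CPM in the CTRL libraries. For these genes the diets did not overlap. Lcn2, a secreted protein that binds bacterial siderophores, had 1505 and 2061 CPM in the HFD libraries, against 1158 and 1749.7 CPM in the CTRL libraries. Cyp2f2, a cytochrome P450 also known from airway club cells, had 781 and 713 CPM in HFD and 756 and 869.6 CPM in CTRL members. Both of these overlapped between the diets. Sox9 was at 236 and 248 CPM in the HFD libraries, against 266 and 329.6 CPM in the CTRL libraries, so that both HFD libraries were below both CTRL libraries. Cpxm2, a member of the carboxypeptidase family, had 174 and 135 CPM in HFD members and 131 and 149.8 CPM in CTRL members, and Aldh3a1, an aldehyde dehydrogenase, 133 and 139 CPM in HFD members and 105 and 95.9 CPM in CTRL members. In the members the mean of a marker was between 29.9 times (Sox2) and 124 times (Cyp2f2) its mean in the other barcodes.

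The hormone genes were lower in members than in the other barcodes and were spread unevenly among the members. In HFD 1 a Gh UMI was found in 93.5% of members, a Prl UMI in 70.5% and a Pomc UMI in 65.3%. In the other libraries each was found in at least 96.3%. The HFD 1 values include the 250 lower copies of shared barcodes, at a median of 1243 UMIs, and were not taken without them. The top 2 members held 7915 of 25477 Gh UMIs in HFD 1, 7701 of 14376 Prl UMIs in CTRL 2 and 6794 of 12885 Pomc UMIs in HFD 2. Gh, which encodes growth hormone, stood at 4523 and 3238 CPM in HFD 1 and HFD 2, against 5229.8 and 3914 CPM in CTRL 1 and CTRL 2, while the other kept barcodes had 159130 and 160413 CPM in the HFD libraries, against 199107 and 140522 CPM in the CTRL libraries. Prl, which encodes prolactin, had 3165 and 2213 CPM in HFD members, against 3306 and 1987 CPM in CTRL members, and Pomc, the precursor of corticotropin and melanotropin, 2886 and 1663 CPM in HFD members, against 2254 and 2549 CPM in CTRL members. All 3 overlapped between the diets. In a typical member the 3 hormone genes together took 0.271% and 0.270% of UMIs in HFD 1 and HFD 2, and 0.521% and 0.277% in CTRL 1 and CTRL 2 (medians). Whether these UMIs came from the cells themselves or from free RNA in the suspension was not tested.

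**Figure D2:**
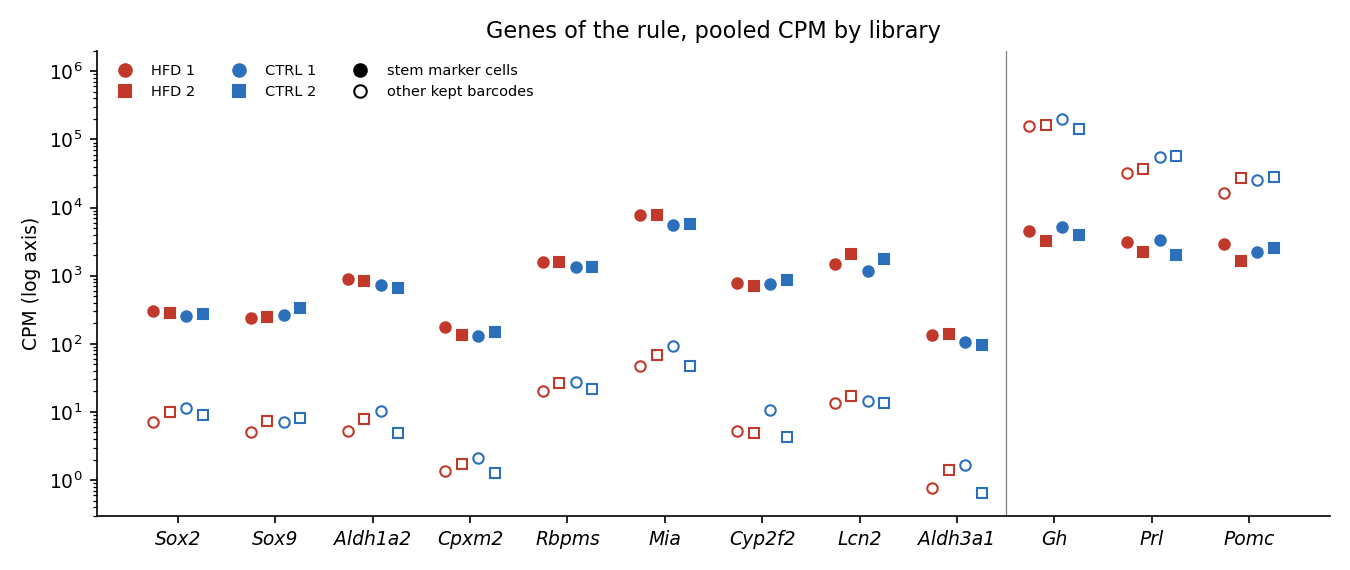
CPM on a log axis of the 9 marker genes and the 3 hormone genes (right of the line), in members (filled) and in the other kept barcodes (open), with 1 point for each library and HFD (red) left of CTRL (blue). Each marker is far higher in members, Cyp2f2 at 124 times and Sox2 at 29.9 times the mean of the other barcodes, while Gh is far lower.

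Barcodes lay close to the limits of the rule on both sides. There were 1948 kept barcodes with at least 4 markers, and the hormone limit left out 183 of them (9.39%). The 181 members with exactly 4 markers had a median of 1761 UMIs, and the 292 barcodes with 3 markers, just outside the rule, a median of 10263.5 UMIs. By library the members with 4 markers numbered 90 and 34 in HFD 1 and HFD 2, with medians of 1059.5 and 15726.5 UMIs, against 17 and 40 in CTRL 1 and CTRL 2, with medians of 13720 and 2611 UMIs. Without the lower copies 96 members had exactly 4 markers, at a median of 12982 UMIs, and 230 barcodes had 3, at a median of 13160 UMIs. The 63 members with 5% to under 10% hormone UMIs and the 53 barcodes with 10% to under 15%, left out, both had a median of 8 markers.

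The leading genes of the members were ranked by the ratio of their mean CPM in members to that in the other barcodes, among 3370 genes with a mean of at least 50 CPM in members, and 216 of these had a ratio of at least 10. This ranking comes from the same cells that the rule chose and is a description. Of the 20 highest ratios, all at 71.3 or more, 14 belonged to genes outside the rule: Krt17, Alox15, Bpifa1, Alox12e, Aqp3, Aqp4, Elobl, Mpzl2, Agr3, Gpha2, Hey2, Slc39a12, Gm266 and Sfrp5.

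Krt17, a keratin of stratified epithelia, had the highest ratio, 188, with 87.0 and 243 CPM in HFD 1 and HFD 2, against 148 and 474 CPM in CTRL 1 and CTRL 2. Its levels differed more between libraries of one diet than between the diets. Alox15, a lipoxygenase that oxidises polyunsaturated fatty acids, had 46.3 and 48.4 CPM in the HFD libraries, against 61.2 and 76.3 CPM in the CTRL libraries. Agr3, of the protein disulfide isomerase family, had 189 and 158 CPM in the HFD libraries, against 160.2 and 186 CPM in the CTRL libraries. Hey2, a transcriptional repressor switched on by Notch, had 101 and 114 CPM in HFD members and 124 and 95.4 CPM in CTRL members, while Sfrp5, a secreted Wnt antagonist, had 107 and 93.8 CPM in HFD members and 77.4 and 88.4 CPM in CTRL members. Alox15 was below both CTRL libraries in both HFD libraries, Sfrp5 above them, and Agr3 and Hey2 overlapped.

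Gpha2, an alpha subunit of the glycoprotein hormone thyrostimulin, had 112 and 105 CPM in the HFD libraries, against 68.2 and 71.4 CPM in the CTRL libraries. Elobl was at 78.8 and 50.3 CPM in the HFD libraries and at 188 and 119.5 CPM in the CTRL libraries. Neither gene overlapped between the diets. An Elobl UMI was detected in 46 and 43 members of the HFD libraries, against 56 and 75 of the CTRL libraries, and the top 2 members held 159 of 444 and 162 of 390 of its UMIs in HFD 1 and HFD 2, against 437 of 1481 and 218 of 865 in CTRL 1 and CTRL 2. Bpifa1, a secreted defence protein of the upper airways, was also carried by few cells. It was at 42.1 and 560.3 CPM in HFD 1 and HFD 2, against 4919 and 485.6 CPM in CTRL 1 and CTRL 2, and the top 2 members of CTRL 1 alone held 32697 of its 38715 UMIs there. In HFD 1 its level was 1.06 times that in the other barcodes (39.5 CPM), so its place among the leading genes rested on the other libraries.

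Both water channels of the group had higher levels in HFD members. Aqp3, which also passes glycerol, stood at 114 and 119.8 CPM in the HFD libraries, against 65.9 and 76.0 CPM in the CTRL libraries, and Aqp4 at 88.2 and 93.2 CPM in the HFD libraries, against 73.4 and 64.9 CPM in the CTRL libraries. The diets did not overlap for either gene, and Aqp3 differed by 0.71 ± 0.12 on the log2 scale, with an adjusted p of 0.673 by the edgeR test described below, so it did not pass. The difference was 0.37 without both copies of shared barcodes. Aqp3 lies on the minus strand of chromosome 4 (41092722 to 41098183). The 200 bases before its RefSeq start (chr4:41098184-41098383, minus strand, GRCm38.p6) are shown because Aqp3 is a leading gene outside the rule that did not overlap between the diets, with the TATA motif at 29 to 24 bases before the start in capitals:
Aqp3: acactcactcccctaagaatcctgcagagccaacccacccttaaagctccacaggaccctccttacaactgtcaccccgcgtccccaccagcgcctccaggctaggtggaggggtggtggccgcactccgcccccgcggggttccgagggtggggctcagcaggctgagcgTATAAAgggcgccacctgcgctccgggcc
Of the 15 leading genes that had a window, 3 held the TATA motif, 1 the Sox core and 1 the AP-1 motif, with both strands searched.

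Some members also carried markers of other cell classes. Members with at least 3 markers of a class that makes no hormone, or at least 4 of a hormone cell list, numbered 84 (14.1%) in HFD 1 and 82 (19.7%) in HFD 2, against 96 (30%) in CTRL 1 and 80 (18.5%) in CTRL 2. The endothelial class was met by 44 and 16 members in HFD 1 and HFD 2 (7.37% and 3.85%). In CTRL 1 and CTRL 2 it was met by 28 and 13 (8.75% and 3.01%). Of the other kept barcodes, 5.58% and 4.48% met it in the HFD libraries, and 6.68% and 6.56% in the CTRL libraries. The gonadotrope and thyrotrope list was met by 13 and 14 members in the HFD libraries and by 25 and 12 in the CTRL libraries. These were 2.18% and 3.37%, against 7.81% and 2.78%, of the members. The other kept barcodes met it at 4.56% and 7.17% in the HFD libraries, against 7.80% and 3.56% in the CTRL libraries. Pituicyte markers, of the posterior lobe's glia, were met in 7 and 23 HFD members (1.17% and 5.53%). In CTRL members they were met in 8 and 20 (2.5% and 4.63%). Of the other kept barcodes, 0.445% and 0.619% met them in the HFD libraries, and 0.310% and 0.420% in the CTRL libraries. All 5 pituicyte markers were higher in members than in the other barcodes in all 4 libraries. Macrophage markers were met in 20 and 3 HFD members (3.35% and 0.721%) and in 11 and 10 CTRL members (3.44% and 2.31%). The other barcodes met them at 2.91% and 2.68% in HFD, against 3.17% and 2.12% in CTRL libraries. Without the lower copies the members that met any of these lists were 70 (20.2%) and 82 (19.8%) in HFD 1 and HFD 2, against 96 (30%) and 80 (19.5%) in CTRL 1 and CTRL 2, and those that met the gonadotrope and thyrotrope list were 7 and 14 in the HFD libraries, against 25 and 12 in the CTRL libraries. With all members, the airway secretory and basal epithelium list was met by 1 and 16 HFD members and by 3 and 1 CTRL members. Of the other kept barcodes, 0 and 1 met it in HFD 1 and HFD 2, and 0 in CTRL 1 and CTRL 2 each. Counts of this kind differed as much within a diet as between the diets. Putative doublets, scored against simulated ones, made up 5.53% and 6.49% of members in HFD 1 and HFD 2, against 1.56% and 6.71% in CTRL 1 and CTRL 2, and were kept. Among HFD 1 members they made up 8.93% without the lower copies. In the other kept barcodes they made up 6.49% and 5.85% in HFD 1 and HFD 2, against 3.77% and 5.81% in CTRL 1 and CTRL 2. The number taken in a library was set by its count of kept barcodes, so CTRL 1, with the fewest, was allowed the smallest share.

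Few members held RNA of the cell division machinery. At least 3 of 10 mitotic genes, among them Mki67 and Top2a, were detected in 3 and 4 members of HFD 1 and HFD 2 (0.503% and 0.962%), against 4 and 1 members of CTRL 1 and CTRL 2 (1.25% and 0.231%). HFD 1 had 1 such member without the lower copies, and the other libraries had the same numbers as before. With these counts no difference between the diets was detectable.

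The share of members among the kept barcodes differed less between the diets than between libraries of one diet. It was 7.45% (exact binomial 95% interval 6.89% to 8.05%) in HFD 1 and 5.65% (5.13% to 6.20%) in HFD 2, against 7.09% (6.36% to 7.88%) in CTRL 1 and 5.89% (5.36% to 6.45%) in CTRL 2. The intervals cover counting error only. The means were 6.55% ± 1.27 in HFD and 6.49% ± 0.849 in CTRL libraries (SD, n = 2 each), a difference of 0.0609 percentage points (exact two-sided permutation test, p = 1). With 2 libraries against 2 this test cannot go below 0.333.

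Without the lower copies of shared barcodes the order of the diets turned. The share was then 5.64% in HFD 1 and 5.66% in HFD 2, against 7.10% in CTRL 1 and 5.68% in CTRL 2, a difference of -0.748 points (exact permutation p = 0.333, the smallest that the design allows). With each barcode thinned to 2000 UMIs it was 5.48% and 4.89% in HFD 1 and HFD 2, against 6.16% and 5.01% in CTRL 1 and CTRL 2, after 1972, 283, 224 and 401 shallower barcodes had been left out of HFD 1, HFD 2, CTRL 1 and CTRL 2. In each of these readings CTRL 1 stood apart from CTRL 2 by more than the diets differed.

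**Figure D3:**
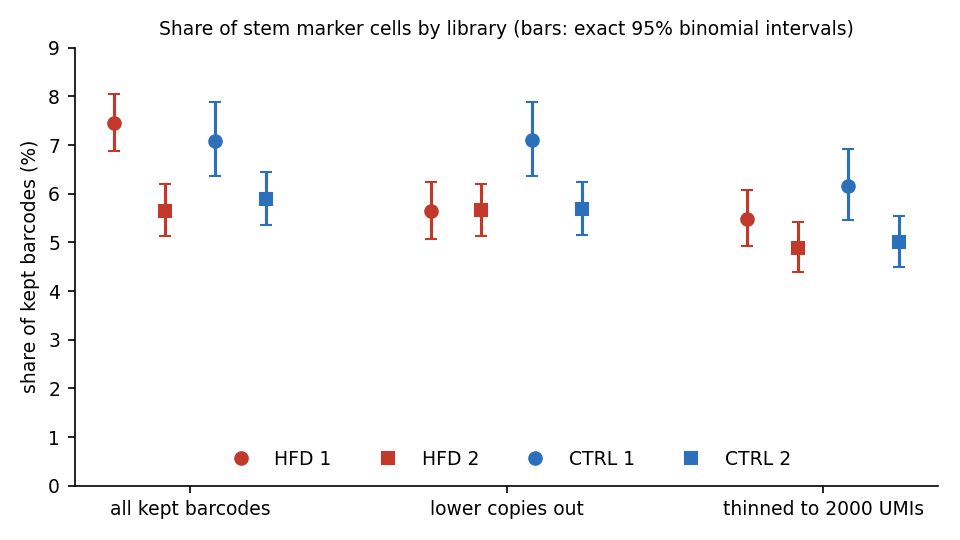
Share of members among kept barcodes in each library, in percent with exact 95% binomial intervals as bars, HFD libraries (red) left of CTRL libraries (blue), for all kept barcodes, without the lower copies of shared barcodes and with barcodes thinned to 2000 UMIs. HFD 1 is at 7.45% with all barcodes and at 5.64% without the lower copies, while the other libraries move by far less between those readings.

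The question of the study that concerns gene levels is whether the diet altered RNA in these cells. UMI counts were summed per library over the members, and 14088 genes that passed a filter on low counts were tested with edgeR's quasi-likelihood test and Benjamini-Hochberg adjustment. The test called 0 genes (0%) at an adjusted p under 0.05, and the lowest adjusted p was 0.672. At an unadjusted p under 0.05 there were 802 genes (5.69%), of which 374 (2.65%) were higher and 428 (3.04%) lower in HFD. Both HFD libraries lay above both CTRL libraries for 2801 genes (19.9%) and below them for 2399 (17%). DESeq2 called 17 genes, 7 higher and 10 lower in HFD. The median log2 difference over all genes was 0.0005. The scaling of the libraries before the test (TMM) brings this median near 0, so it cannot show whether all genes shifted together. The median standard error was 0.175, or 0.110 for the 3370 genes with a mean of at least 50 CPM. The count was again 0 without the lower copies, and without both copies of every shared barcode it was 1. The differences of the genes named below moved by at most 0.13 on the log2 scale without the lower copies. The count was 7 without HFD 1, 6 without CTRL 2, 1 without HFD 2 and 0 without CTRL 1. In the other kept barcodes of the same libraries 10 of 18347 genes were called (0.0545%), among them the granulocyte genes S100a8 and S100a9 and the hemoglobin genes Hbb-bs, Hbb-bt, Hba-a1 and Hba-a2.

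The 10 genes with the smallest unadjusted p are given as those nearest to a call. None of them passed the edgeR test, DESeq2 called 6 of them (Id3, Hist1h1b, Scpep1, Thrsp, Rprm and Cxcl14), and edgeR without the filter on low counts called all 10. Id3, an inhibitor of basic helix-loop-helix factors and a known target of BMP signalling, was the most abundant. It lies on the plus strand of chromosome 4 (136143497 to 136145755) and stood at 966 and 962 CPM in HFD 1 and HFD 2, against 525 and 426 CPM in CTRL 1 and CTRL 2. Both HFD libraries were well above both CTRL libraries, by 1.01 ± 0.14 on the log2 scale (standard error, edgeR adjusted p = 0.673). In the other kept barcodes Id3 was at 87.1 and 145 CPM in the HFD libraries and at 61.3 and 117 CPM in the CTRL libraries. The log2 difference in members was 1.00 without the lower copies, 0.36 without both copies of shared barcodes, and 1.23 without members carrying markers of another class.

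Of the other genes among the 10 that were higher in HFD, Tnc, the matrix glycoprotein tenascin C, had 14.9 and 17.03 CPM in HFD members, against 6.35 and 6.22 CPM in CTRL members (log2 difference 1.34 ± 0.19), and the difference was 0.11 with barcodes thinned to 2000 UMIs. Cdh6, a cadherin, had 23.4 and 26.2 CPM in HFD members, against 10.2 and 11.7 CPM in CTRL members (1.17 ± 0.17). Rprm, a mediator of cell cycle arrest downstream of p53, had 92.3 and 93.8 CPM in HFD members, against 58.1 and 48.2 CPM in CTRL members (0.80 ± 0.11). In each of these genes the libraries of one diet lay close together, which the choice by smallest p favours. Thrsp, a thyroid hormone-responsive gene of lipid synthesis, had 160.5 and 148 CPM in HFD members, against 101 and 83.5 CPM in CTRL members (0.73 ± 0.11), and Pdgfrl, which resembles a PDGF receptor, 70.7 and 64.3 CPM in HFD members, against 43.3 and 40.1 CPM in CTRL members (0.68 ± 0.10).

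Of the genes lower in HFD, Scpep1, a serine carboxypeptidase, had 103 and 103 CPM in the HFD libraries, against 164 and 187 CPM in the CTRL libraries (log2 difference -0.77 ± 0.11), with -0.43 after thinning to 2000 UMIs and -0.26 without both copies of shared barcodes. Fam177a had 20.8 and 20.8 CPM in the HFD libraries, against 39.8 and 39.2 CPM in the CTRL libraries (-0.94 ± 0.11). The libraries did not overlap for either gene. Cxcl14, a chemokine of epithelia, was at 22.5 and 24.0 CPM in HFD members, against 45.1 and 46.6 CPM in CTRL members, a log2 difference of -0.99 ± 0.11. It was -0.09 without members carrying markers of another class and -2.05 without putative doublets. Hist1h1b, a linker histone made in S phase, was at 2.49 and 1.94 CPM in HFD members, against 12.3 and 10.5 CPM in CTRL members (-2.38 ± 0.26). Its CTRL level came from few cells, since the top 2 members held 73 of 97 UMIs in CTRL 1 and 51 of 76 in CTRL 2. The members with at least 3 mitotic genes held 76 of its UMIs in CTRL 1 and 44 in CTRL 2, against 0 in HFD 1 and 5 in HFD 2.

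**Figure D4:**
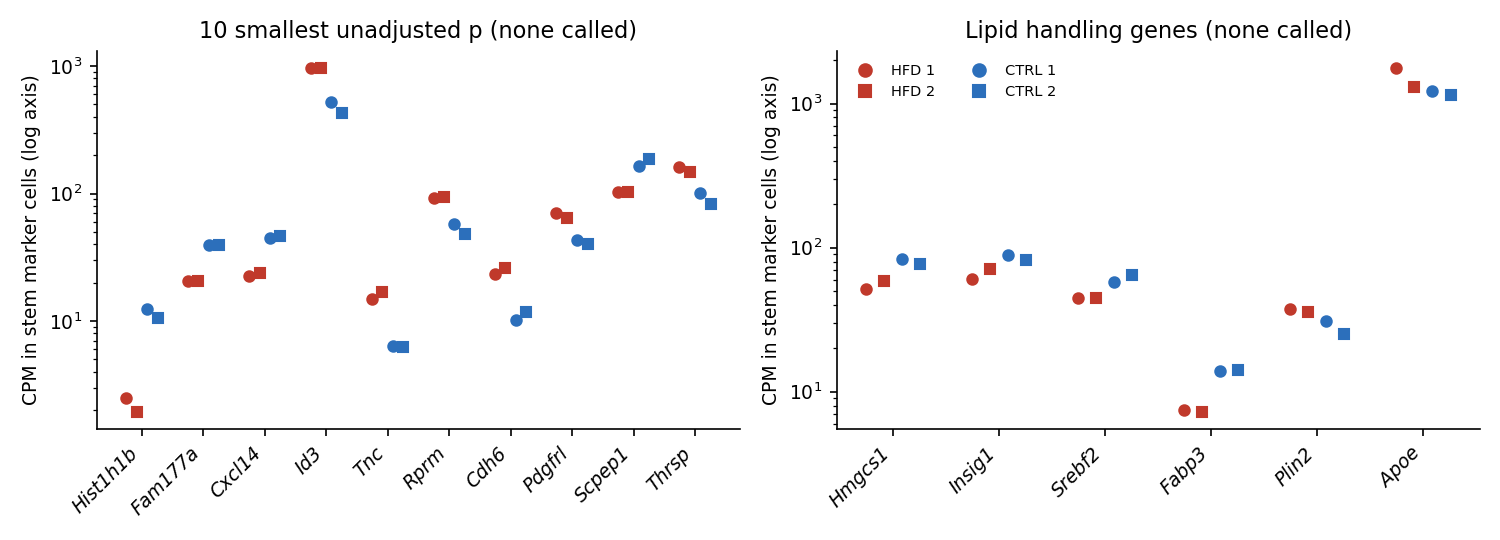
CPM in the members on log axes, 1 point for each library with HFD (red) drawn left of CTRL (blue), of the 10 genes with the smallest unadjusted p (left panel) and of 6 lipid handling genes described further on, Apoe for its abundance and the others chosen after their values were seen (right panel). The diets do not overlap for any gene drawn, which the choice of the genes favours. Over all genes 19.9% lay above and 17% below the CTRL libraries without overlap. Id3 is at 966 and 962 CPM in HFD and 525 and 426 CPM in CTRL members. None of the genes passed the edgeR test, and DESeq2 called 6 of the 10, Id3 among them.

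Gene lists for the pathways and functions of these cells were then read against the same background, by the number of tested genes at an unadjusted p under 0.05, the number whose libraries did not overlap, and the median log2 difference. Over all 14088 tested genes 2.65% were higher and 3.04% lower at that p. Both HFD libraries lay above both CTRL libraries for 19.9% and below them for 17%. None of the list genes passed the edgeR test, DESeq2 called 1 (Ankrd1), and edgeR without the filter on low counts called 4, Ankrd1, Hbegf and Tsc22d3 among them. A gene that is named below for its difference, rather than for being among the 4 most abundant of its list, was chosen after its values were seen, and its edgeR adjusted p was 0.672 or higher.

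Stem cell genes outside the rule were mostly higher in HFD members. Of 22 genes on the list 18 were tested, 14 with a positive and 4 with a negative log2 difference, and the median was 0.26, against 0.05 for the same list in the other kept barcodes. At an unadjusted p under 0.05 there were 4 higher and 1 lower. Of the 18 tested, 8 lay above and 2 below the CTRL libraries without overlap, against 19.9% above and 17% below over all genes. The most abundant, Zfp36l1, an RNA-binding protein that speeds the decay of AU-rich transcripts, had 854 and 1118 CPM in HFD members, against 950.4 and 949.6 CPM in CTRL members. Cd9, a tetraspanin, had 738 and 729 CPM in HFD members, against 674 and 725 CPM in CTRL members, and S100a1, a calcium-binding protein, 341 and 303 CPM in HFD members, against 264 and 306 CPM in CTRL members. Of these only Cd9 did not overlap. Six6, a homeobox factor of the early pituitary, had 231 and 211 CPM in the HFD libraries, against 191 and 161 CPM in the CTRL libraries (0.32 ± 0.11). Fstl1, a secreted glycoprotein, had 189 and 168 CPM in HFD members, against 129.7 and 136 CPM in CTRL members (0.41 ± 0.10). The diets did not overlap for either of these genes. Ednrb, the endothelin B receptor, was lower in HFD, with 194 and 163 CPM in HFD members, against 210.3 and 288 CPM in CTRL members (-0.50 ± 0.18). That difference was -0.22 without CTRL 2 and -0.05 without both copies of shared barcodes, and the difference of Six6 was 0.12 after thinning and 0.18 without both copies.

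Keratin and junction genes, which hold the marginal epithelium together, were mostly lower in HFD members. All 20 genes on the list were tested, 4 with a positive and 16 with a negative log2 difference, and the median was -0.29, against -0.03 in the other barcodes. At an unadjusted p under 0.05 there were 0 higher and 5 lower. Of the 20, 0 lay above and 8 below the CTRL libraries without overlap, against 19.9% above and 17% below over all genes. Krt18 had 791 and 1226 CPM in the HFD libraries, against 1090.4 and 1624 CPM in the CTRL libraries, and Krt8, its partner in simple epithelia, 329 and 502 CPM in the HFD libraries, against 445 and 716 CPM in the CTRL libraries. These keratins overlapped between the diets, with HFD 2 above CTRL 1. Epcam, an epithelial adhesion molecule, was at 1273 and 1399.6 CPM in HFD members and at 1222 and 1389 CPM in CTRL members. Cldn7, a tight junction claudin, had 259 and 296 CPM in HFD members, against 389 and 649.9 CPM in CTRL members (-0.92 ± 0.26). Cldn4 had 18.8 and 25.9 CPM in HFD members, against 27.6 and 83.1 CPM in CTRL members (-1.31 ± 0.52), and Cdh1, E-cadherin, 22.2 and 34.2 CPM in HFD members, against 37.0 and 53.5 CPM in CTRL members (-0.68 ± 0.28). For the claudins and Cdh1 the diets did not overlap, and CTRL 2 was the highest library for each. Without CTRL 2 the differences were -0.47 for Cldn7, -0.27 for Cldn4 and -0.36 for Cdh1, and that of Cdh1 was -0.40 without HFD 1 and -1.07 without HFD 2.

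In the Notch list all 19 genes were tested, with 14 positive and 5 negative log2 differences and a median of 0.07, against 0.01 in the other barcodes. Without overlap 4 lay above and 2 below the CTRL libraries. At an unadjusted p under 0.05, 2 genes were higher and 0 lower. One of them, Hes1, the repressor through which Notch keeps progenitors uncommitted, had 2347 and 2216 CPM in HFD members, against 1775 and 1341 CPM in CTRL members (0.54 ± 0.17). The other, Heyl, had 25.7 and 28.8 CPM in HFD members, against 20.1 and 14.2 CPM in CTRL members (0.66 ± 0.19), with 1.01 after thinning and 0.33 without both copies of shared barcodes. Neither overlapped between the diets. Among the abundant members of the pathway, Hey1 had 178 and 216 CPM in the HFD libraries, against 172 and 152 CPM in the CTRL libraries, and the receptor Notch2 86.6 and 69.0 CPM in the HFD libraries, against 71.3 and 65.4 CPM in the CTRL libraries.

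Hippo, Wnt and FGF genes had medians near that of all genes, with 1 higher and 2 lower, 2 higher and 0 lower, and 3 higher and 1 lower genes at an unadjusted p under 0.05. Of the Hippo genes 2 lay above and 9 below the CTRL libraries without overlap. These counts were 5 and 2 in the Wnt list and 5 and 5 in the FGF and EGF list. The Hippo list (20 tested) had 8 positive and 12 negative values with a median of -0.05, the Wnt list (20 tested) 10 and 10 with a median of 0.02, and the FGF and EGF list (16 tested) 8 and 8 with a median of -0.01. Ccn1, a secreted target of YAP, was at 688 and 923 CPM in HFD members and at 771 and 638 CPM in CTRL members, overlapping. Ankrd1, another YAP target, had 0.888 and 3.48 CPM in HFD members, against 16.4 and 13.4 CPM in CTRL members, a log2 difference of -2.68 ± 0.49 that was -4.08 without HFD 2 and -0.46 without members carrying markers of another class. The receptor Fzd3 had 277 and 209 CPM in HFD members, against 199.9 and 187 CPM in CTRL members, and Lgr5, the R-spondin receptor that marks stem cells of the gut, 5.86 and 5.68 CPM in HFD members, against 2.29 and 3.18 CPM in CTRL members (1.06 ± 0.33). In the FGF list Fgf1 had 88.2 and 82.3 CPM in HFD members, against 63.9 and 65.2 CPM in CTRL members (0.39 ± 0.09), and the ERK phosphatase Dusp6 69.9 and 80.0 CPM in HFD members, against 56.9 and 56.2 CPM in CTRL members (0.40 ± 0.12). Those 4 genes did not overlap between the diets. Hbegf, a ligand of the EGF receptor, was lower in HFD with 39.2 and 37.2 CPM in HFD members, against 55.9 and 78.6 CPM in CTRL members (-0.83 ± 0.19), and its difference was -0.53 without CTRL 2 and -0.50 after thinning. Thinning also gave 0.24 for Dusp6, and leaving out both copies of shared barcodes 0.62 for Fgf1.

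The retinoid list, without the rule's Aldh1a2, had 12 tested genes, 9 positive and 3 negative, and a median of 0.19, against 0.27 in the other barcodes. There were 2 higher and 0 lower at an unadjusted p under 0.05, and 6 lay above and 2 below the CTRL libraries without overlap. Aldh1a1, another enzyme of retinoic acid synthesis, had 117 and 135 CPM in HFD members, against 106 and 108 CPM in CTRL members. The diets did not overlap for this gene.

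Lipid handling genes had values in both directions. Of 30 tested genes 15 were positive and 15 negative with a median of -0.04, but 8 were lower and 2 higher at an unadjusted p under 0.05. In this list 13 lay below and 5 above the CTRL libraries without overlap, against 17% below and 19.9% above over all genes. Hmgcs1, an early enzyme of cholesterol synthesis, had 51.3 and 58.5 CPM in HFD members, against 82.8 and 76.8 CPM in CTRL members (-0.55 ± 0.12). Both HFD libraries were below both CTRL libraries. Insig1, the sterol sensor that holds back the pathway, had 60.9 and 70.5 CPM in HFD members, against 89.1 and 82.4 CPM in CTRL members (-0.39 ± 0.12), and Srebf2, the factor that switches the pathway on, 44.6 and 44.5 CPM in HFD members, against 57.8 and 64.5 CPM in CTRL members (-0.47 ± 0.11). In the other kept barcodes the log2 differences were -0.57 for Insig1, -0.38 for Hmgcs1 and -0.10 for Srebf2, the same sign as in members. The difference in members was -0.84 for Hmgcs1 without both copies of shared barcodes and -0.61 for Insig1 after thinning.

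Among the lipid genes higher in HFD, Plin2, a coat protein of lipid droplets, had 37.6 and 35.7 CPM in HFD members, against 30.7 and 25.3 CPM in CTRL members (0.38 ± 0.12). Apoe, the most abundant gene of the list and a carrier of lipids between cells, had 1765 and 1309 CPM in HFD members, against 1217 and 1141 CPM in CTRL members. Neither overlapped between the diets. The difference of Plin2 was 0.15 without members carrying markers of another class, 0.16 after thinning and 0.60 without both copies of shared barcodes. Fabp3, a fatty acid-binding protein, had 7.46 and 7.23 CPM in HFD members, against 13.8 and 14.2 CPM in CTRL members (-0.95 ± 0.18), while in the other barcodes its log2 difference was 0.09, and with members of at least 3 markers it was -0.50. The most negative value of the list was that of Cd36, a fatty acid transporter, with 0.355 and 0.258 CPM in HFD members, against 3.05 and 2.35 CPM in CTRL members (-3.10 ± 0.56), which rests on 2 and 2 UMIs in HFD and 24 and 17 in CTRL members.

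Immediate-early genes, which rise within minutes of a stimulus and also during tissue dissociation, were more often lower in HFD members. All 26 were tested, 9 positive and 17 negative, with a median of -0.21, against -0.48 in the other barcodes. There were 0 higher and 6 lower at an unadjusted p under 0.05, and 1 lay above and 10 below the CTRL libraries without overlap. The most abundant overlapped between the diets, with Fos at 4245 and 5274 CPM in HFD members, against 5219 and 3902 CPM in CTRL members, and Jun at 3983 and 4401 CPM in HFD members, against 4236 and 2795 CPM in CTRL members. Atf3 was at 3390.1 and 4344 CPM in HFD members and at 4432 and 4990.4 CPM in CTRL members, without overlap. Klf4, a factor of epithelial differentiation, had 216 and 234 CPM in HFD members, against 309 and 572 CPM in CTRL members (-0.99 ± 0.30), Fosl1 44.7 and 52.7 CPM in HFD members, against 65.2 and 135 CPM in CTRL members (-1.05 ± 0.35), and Nr4a1 529 and 563 CPM in HFD members, against 644 and 727 CPM in CTRL members (-0.34 ± 0.13). In Klf4 and Fosl1 CTRL 2 was well above CTRL 1, which itself was above both HFD libraries. Without CTRL 2 the differences were -0.44 for Klf4, -0.40 for Fosl1 and -0.22 for Nr4a1, and that of Nr4a1 was -0.71 without both copies of shared barcodes.

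Among glucocorticoid targets and metallothioneins, all 12 were tested, with 4 positive and 8 negative values, a median of -0.08, and 2 higher and 1 lower at an unadjusted p under 0.05. Of the 12 genes, 2 lay above and 1 below the CTRL libraries without overlap. Tsc22d3, the glucocorticoid-induced leucine zipper, had 182 and 201 CPM in HFD members, against 115 and 126 CPM in CTRL members (0.66 ± 0.12), and the kinase Sgk1 151 and 129.6 CPM in HFD members, against 99.1 and 102 CPM in CTRL members (0.47 ± 0.10). For both the diets stood apart. Cdkn1a, the cell cycle inhibitor p21, had 33.6 and 43.0 CPM in HFD members, against 55.7 and 83.6 CPM in CTRL members (-0.87 ± 0.24), with -0.52 without CTRL 2. After thinning the difference of Sgk1 was 0.14. Mt1, a metallothionein and among the most abundant genes of the cells, had 9450.3 and 12892 CPM in HFD members, against 9690.2 and 14124 CPM in CTRL members, higher in HFD 2 and CTRL 2 than in HFD 1 and CTRL 1.

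Defence and cytokine genes (25 tested, 10 positive and 15 negative, median -0.08) and antioxidant genes (26 tested, 10 and 16, median -0.04) had medians close to that of all genes. At an unadjusted p under 0.05 the defence list had 3 higher and 1 lower, and the antioxidant list 1 of each. Without overlap the defence list had 4 above and 5 below the CTRL libraries, and the antioxidant list 8 and 4. Nfkbia, the inhibitor of NF-kappaB, had 507 and 512 CPM in HFD members, against 438 and 692 CPM in CTRL members, and the chemokine Cxcl1 97.3 and 173 CPM in HFD members, against 87.0 and 101 CPM in CTRL members. Txnip, which binds thioredoxin and responds to glucose, had 1009 and 1141 CPM in HFD members, against 880.0 and 703 CPM in CTRL members, and Gstm1, a glutathione transferase, 1174 and 1289 CPM in HFD members, against 1136 and 1344 CPM in CTRL members. Of these only Txnip did not overlap. Interferon and MHC class I genes (16 tested, 11 positive and 5 negative) had a median of 0.22 and also 0.22 in the other barcodes, with 0 genes at an unadjusted p under 0.05, and the median was -0.10 without members carrying markers of another class and -0.09 without HFD 1. Of these interferon and MHC genes 3 lay above and 1 below the CTRL libraries without overlap. H2-K1, an MHC class I chain, had 859.7 and 661 CPM in HFD members, against 617 and 647 CPM in CTRL members.

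Matrix genes (26 tested, 14 positive and 12 negative) had a median of 0.04, cell cycle genes (18 tested, 8 and 10) a median of -0.06, and heat shock genes (16 tested, 5 and 11) a median of -0.06. At an unadjusted p under 0.05 the matrix list had 2 higher and 2 lower, the cell cycle list 0 and 1, and the heat shock list 0 and 2. Without overlap the matrix list had 5 above and 4 below the CTRL libraries, the cell cycle list 2 and 5, and the heat shock list 0 and 3. Timp3, an inhibitor of matrix metalloproteinases, had 881 and 1039 CPM in HFD members, against 926 and 1031 CPM in CTRL members, and Col18a1, of the basement membrane, 61.8 and 71.0 CPM in HFD members, against 42.2 and 46.2 CPM in CTRL members (0.58 ± 0.13). The heat shock protein Hspb1 had 3414 and 3563 CPM in HFD members, against 4129 and 2513 CPM in CTRL members. Col18a1 was the one of these without overlap. Factors of the hormone lineages (12 tested, 4 positive and 8 negative) had 0 higher and 1 lower at an unadjusted p under 0.05. Without overlap 0 lay above and 1 below the CTRL libraries. Their median was -0.21, against 0.10 in the other barcodes. That median was 0.0003 without members carrying markers of another class, 0.02 without CTRL 1, -0.46 without HFD 1 and -0.80 without putative doublets. Isl1, a LIM homeobox factor of early progenitors, was itself 13.9 times as high in members as in the other barcodes, at 166 and 209.6 CPM in HFD and 203 and 228 CPM in CTRL members.

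**Figure D5:**
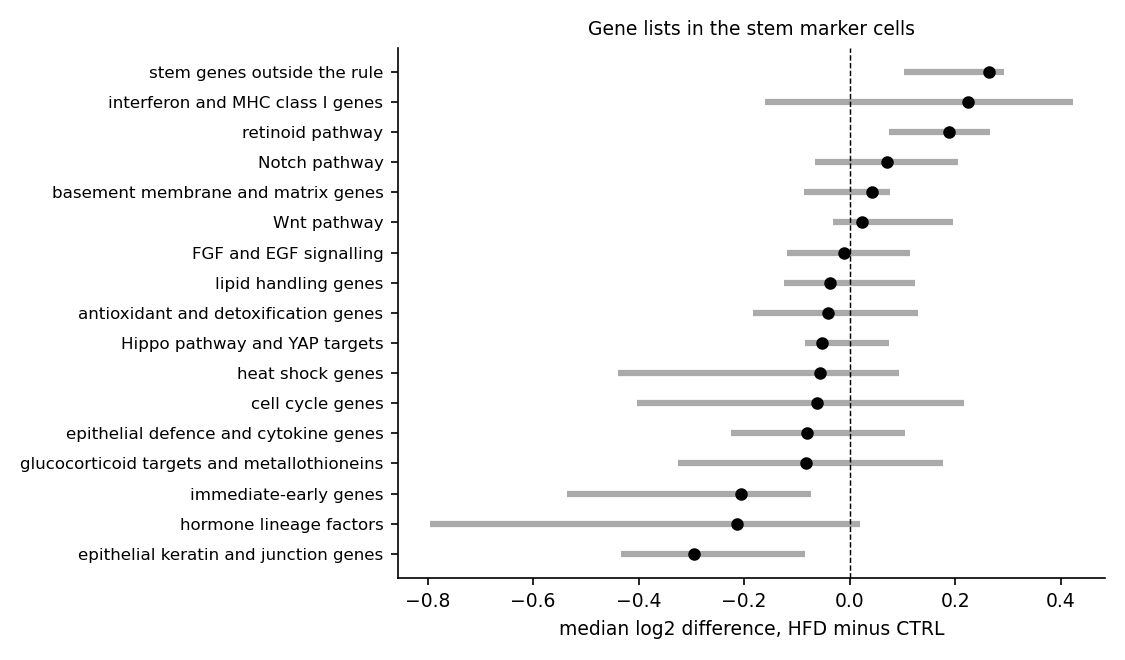
Median log2 difference (HFD minus CTRL, horizontal axis) of the tested genes of each list in members as a black point. A grey bar runs from the lowest to the highest median under the alternative settings. The dashed line is the median over all tested genes, 0.0005. Stem cell genes outside the rule have the highest median (0.26) and keratin and junction genes the lowest (-0.29), and both bars stay on their side of 0.

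The last comparison asked whether a gene differed between the diets by another amount in members than in the other kept barcodes of the same libraries. The edgeR quasi-likelihood test of that interaction, with the library as a block, called 0 of 17901 genes (0%), with 930 (5.2%) at an unadjusted p under 0.05, and DESeq2 called 21. The 5 genes with the smallest p were Lhb, Gnrhr, Tgfbr3l, Scg2 and Cga. Gnrhr, the receptor for gonadotropin-releasing hormone, had 16.3 and 27.0 CPM in HFD members, against 64.4 and 52.9 CPM in CTRL members, and in the other barcodes 56.9 and 90.4 CPM in HFD, against 85.7 and 79.8 CPM in CTRL libraries (interaction -1.22 ± 0.10 on the log2 scale, adjusted p = 0.122). Lhb, which encodes the subunit specific to luteinizing hormone, had 4.26 and 21.3 CPM in HFD members, against 113 and 31.5 CPM in CTRL members, and in the other barcodes 18.3 and 90.1 CPM in HFD, against 157 and 53.0 CPM in CTRL libraries (-1.43 ± 0.12, adjusted p = 0.122). Cga, the alpha subunit common to the pituitary glycoprotein hormones, had 4035 and 6529 CPM in HFD members, against 10234 and 5951 CPM in CTRL members, and in the other barcodes 17599.7 and 25121 CPM in HFD, against 14226 and 11141 CPM in CTRL libraries (-1.30 ± 0.14, adjusted p = 0.224). In members each of these was highest in CTRL 1, and Cga overlapped between the diets while Gnrhr and Lhb did not. A Gnrhr UMI was found in only 19 and 19 HFD members, against 25 and 17 CTRL members. For Lhb these numbers were 6 and 19, against 44 and 15. The top 2 members held 46 of 92 Gnrhr UMIs in HFD 1 and 130 of 507 in CTRL 1. They held 17 of 24 and 300 of 889 Lhb UMIs there, and 6875 of 22730 and 26668 of 80543 Cga UMIs.

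The others were Tgfbr3l, an inhibin co-receptor of gonadotropes (-1.28 ± 0.11, adjusted p = 0.122), and Scg2, secretogranin II (-1.09 ± 0.10, adjusted p = 0.123). All 7 markers of the gonadotrope and thyrotrope list were lower in members than in the other barcodes in every library, and none was at 0. Their summed level was 4645 and 7660.3 CPM in HFD members, against 11446 and 6549 CPM in CTRL members. The share of members that met the list was likewise highest in CTRL 1, at 7.81%. Among the other kept barcodes the share that met the list was also highest in CTRL 1, at 7.80%. Directions differed within the list. Tshb, of thyrotropes, had 402 and 609 CPM in HFD members, against 329 and 77.4 CPM in CTRL members, with an interaction of 1.48 ± 0.38 (adjusted p = 0.917). Without members carrying markers of another class the interaction was 1.09 for Gnrhr, 1.03 for Cga and 0.23 for Scg2, opposite in sign, and -0.51 for Lhb and -0.58 for Tgfbr3l. Since Gnrhr, Cga and Lhb are themselves on the list by which those members were left out, this is a description of the remaining members. Without putative doublets the 5 interactions lay between -2.41 and -2.06, and without both copies of shared barcodes that of Gnrhr was -0.40 and that of Cga -0.63. The test again called 0 genes without the lower copies. It called 19 without HFD 1, 12 without HFD 2, 6 without CTRL 2 and 2 without CTRL 1.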

How the data were processed

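Single-cell RNA-seq of mouse pituitary, 4 libraries and 2 for each diet, was analysed from the deposited UMI counts, which are whole numbers per gene and barcode and not normalized. Cell Ranger 6.1.2, Seurat 4.3 and the build mm10 appear, per the submitters' processing notes, with no role stated. The counting annotation and strand setting are not given in the sources used, so counts of overlapping genes and near-identical copies are uncertain. Gene positions come from GENCODE vM21 and promoters from RefSeq.

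Kept barcodes and members followed the rule given in the report. The members and the gene lists were chosen with earlier results of these data known. Cells are not replicates, so counts were summed per library (5633253, 7748941, 7870514 and 7236491 UMIs over the members of HFD 1, HFD 2, CTRL 1 and CTRL 2) and tested with edgeR 4.0.16 (limma 3.58.1, R 4.3.3; filterByExpr, TMM, quasi-likelihood F-test, Benjamini-Hochberg), and with DESeq2 1.42.0 as an alternative. Values are CPM of the summed counts, and log2 differences are HFD minus CTRL with their standard error. Shares of cells were compared by an exact permutation test of the library values. Doublets were scored in each library against simulated doublets, 2 per barcode, in 30 principal components (scanpy 1.11.5, Python 3.11.15), at an assumed 0.8% per 1000 barcodes, and kept except in one alternative. The tests were tried on simulated data first. The text names, in the diet test, the 10 genes with the smallest unadjusted p because none was called, the 4 most abundant genes of a list (examples of them), the 12 genes of the rule, the 20 leading genes and the 5 smallest p of the interaction, and says where a gene was chosen after its values were seen. Some genes that this rule names are not reported here.

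The labels give both diets the replicate numbers 1 and 2 without saying what they mark. Deviations of same-numbered libraries from their group means had a correlation of 0.083 over 14088 genes, with 2 pairs only, so the numbers were not taken to pair the libraries.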

Additional observations from a re-analysis of the deposited data

How the results depend on the processing

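The members' share turned lower in HFD with at least 5 markers (-0.271 percentage points), when kept barcodes needed 1000 genes and 10% mitochondrial UMIs or less (-0.425), in members of at least 5000 UMIs (-1.60), after thinning to 2000 UMIs (-0.396), without the lower copies (-0.748) and without both copies of shared barcodes (-2.28), and it ran from -0.839 to 0.961 with 1 library left out. The cause was not tested. The diet test in members called 17 genes with DESeq2, 43 without a filter on low counts and 1 without both copies, and between 0 and 7 with 1 library left out, where the lone library of a diet is assumed to vary like the pair of the other diet. With the replicate number as a block it called 3. The count stayed at 0 in 12 of 19 alternatives. The interaction called 21 genes with DESeq2, 9 without the filter, 4 after thinning, 1 without both copies, 4 without members carrying markers of another class, and 2 to 19 with 1 library left out. Of 710 values of 38 named genes under these settings, 689 kept direction and side of the threshold, 21 passed it and 0 reversed, and without members carrying markers of another class the interaction reversed for Gnrhr (1.09), Scg2 (0.23) and Cga (1.03). Without the lower copies the named genes' differences moved by at most 0.13 on the log2 scale, and without both copies by up to 0.65 (Id3). The list medians kept their sign in all 19 alternatives for stem cell genes (0.10 to 0.29), keratin and junction genes (-0.43 to -0.08), immediate-early genes (-0.54 to -0.07) and retinoid genes (0.07 to 0.27). The settings on shared barcodes and on markers of another class were chosen after seeing the data.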
